A study of Mus musculus with 8 samples.

Results

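The set comprised 104 long non-coding RNAs measured in mouse bone marrow-derived macrophages, cells grown in culture from marrow precursors. They were chosen by their level, as the genes annotated as lincRNA (49) or antisense (55) whose mean over the 8 RNA-seq libraries was at least 2 FPKM, reads scaled by gene length and library size. They were taken from 8385 genes with these biotypes, of which 2894 had a read, and from 54532 genes in all. The 4 groups, of 2 libraries each, were macrophages given spermine, a polyamine, and IFN-β for 3 h (spermine 3 h), spermine without IFN-β (spermine 0 h), PBS and IFN-β for 3 h (PBS 3 h), and PBS without IFN-β (PBS 0 h). The labels give no strain, age, spermine dose or spermine time, and there was no group at 3 h without IFN-β, so IFN-β and time after 0 h cannot be told apart. The study asked how spermine changes the response to interferon, and the same question was put here to RNAs that code for no annotated protein. The labels do not say that the 2 libraries of a group came from separate mice or cultures, so the p-values measure the spread between these libraries, which may be technical.

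Long non-coding RNAs are transcripts with no annotated protein-coding frame. A lincRNA lies between coding genes, while an antisense RNA is read from the strand opposite a gene. Those with a known role build nuclear bodies, bind chromatin or proteins, or carry small RNAs such as miRNAs inside their transcript. Type I interferon, of which IFN-β is a member, signals through a cell-surface receptor and acts at interferon-stimulated response elements near its target genes, and long non-coding RNAs are among those targets in macrophages.

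Of the 104 RNAs, 3 contain an annotated miRNA, and their mature sequences are shown because the host transcripts are the nearest that these libraries come to the miRNAs. The seed, bases 2 to 8, is in capitals, and the sequences are those of RefSeq on GRCm38.p6. F630028O10Rik holds Mir223, a miRNA of myeloid cells, Mir142hg holds Mir142, a miRNA of blood cells, and E130102H24Rik holds Mir101a.
mmu-miR-223-3p: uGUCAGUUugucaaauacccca
mmu-miR-223-5p: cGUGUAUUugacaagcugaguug
mmu-miR-142a-3p: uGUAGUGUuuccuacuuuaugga
mmu-miR-142a-5p: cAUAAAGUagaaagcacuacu
mmu-miR-101a-3p: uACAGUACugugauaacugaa
mmu-miR-101a-5p: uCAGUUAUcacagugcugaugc
None of these 6 mature sequences shares a seed with another, and mature miRNAs were not measured.

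RefSeq promoter windows, 250 bases before to 50 after a gene's start, were matched for 49 of the 104 RNAs, of which 30 had a start within 100 bp of the one in the deposited table. The 4 shown are those of AW112010, the most abundant RNA of the set, at chr19:11050517-11050816 on the minus strand, of Gm17586, whose response to IFN-β differed most upwards with spermine among those that passed, at chr11:120633500-120633799 on the plus strand, of F630028O10Rik, at chrX:96239676-96239975 on the plus strand, and of Gm46224, at chr10:51527507-51527806 on the plus strand. Gm46224 was chosen after its values were seen, and its RefSeq start lies 1417 bp from that in the deposited table. Capitals mark an exact match, on either strand, to an interferon-stimulated response element (GAAA, any 2 bases, GAAA) or to the core of the antioxidant response element (TGACNNNGC).
AW112010: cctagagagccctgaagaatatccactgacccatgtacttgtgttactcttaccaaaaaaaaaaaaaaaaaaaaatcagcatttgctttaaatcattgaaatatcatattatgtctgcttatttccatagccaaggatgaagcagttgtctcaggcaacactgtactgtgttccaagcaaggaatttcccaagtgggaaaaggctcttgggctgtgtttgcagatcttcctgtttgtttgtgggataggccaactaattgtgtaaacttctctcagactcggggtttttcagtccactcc
Gm17586: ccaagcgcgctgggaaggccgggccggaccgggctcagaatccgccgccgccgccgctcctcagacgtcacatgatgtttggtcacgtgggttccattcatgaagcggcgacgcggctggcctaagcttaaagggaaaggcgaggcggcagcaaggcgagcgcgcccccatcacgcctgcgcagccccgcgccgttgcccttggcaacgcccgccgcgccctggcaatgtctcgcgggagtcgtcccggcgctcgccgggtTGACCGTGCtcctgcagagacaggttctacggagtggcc
F630028O10Rik: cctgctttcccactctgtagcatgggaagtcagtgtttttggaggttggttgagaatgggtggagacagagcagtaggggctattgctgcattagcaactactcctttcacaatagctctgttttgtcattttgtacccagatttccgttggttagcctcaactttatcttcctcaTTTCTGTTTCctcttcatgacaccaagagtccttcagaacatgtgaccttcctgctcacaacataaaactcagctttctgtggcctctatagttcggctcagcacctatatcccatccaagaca
Gm46224: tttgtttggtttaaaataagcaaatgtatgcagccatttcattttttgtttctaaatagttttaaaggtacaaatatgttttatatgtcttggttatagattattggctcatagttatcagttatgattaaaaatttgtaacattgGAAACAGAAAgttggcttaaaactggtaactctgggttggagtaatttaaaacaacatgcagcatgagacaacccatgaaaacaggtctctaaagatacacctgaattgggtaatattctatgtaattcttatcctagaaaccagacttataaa
AW112010 holds no match to either motif, nor to the gamma-activated sequence (TTCNNNGAA) or the AP-1 site (TGANTCA), in this window. The match in F630028O10Rik reads on the opposite strand, and that in Gm17586 lies 11 bases after the start.

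The set covered 20 chromosomes, 61 of its RNAs had a provisional Gm name and 18 a Rik name, and the highest mean was 86.7 FPKM. The median of the 104 means was 3.83 FPKM, against 9.05 FPKM over the 8098 protein-coding genes with a mean of at least 2. There were 22 RNAs with a mean of at least 10 FPKM. The lowest inside the limit were 6330403L08Rik (2.04 FPKM), Gm6712 (2.04 FPKM) and Gm26637 (2.06 FPKM), and just outside were 2310026L22Rik (1.99 FPKM), 1600020E01Rik (1.96 FPKM) and Gm15777 (1.94 FPKM). A mean over 8 libraries can be reached through 1 group alone. In 46 of the 104 RNAs every group mean was at least 2 FPKM, in 58 at least 1 group lay under it, and in 4 of those a single group exceeded it. Counts of changed members below are therefore a description of the set beside all genes tested.

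Libraries held 15723437 to 17744844 reads assigned to genes, and a member had a median of 68.75 reads over its libraries at the middle of the set and 3.5 at the low end. Together the 104 RNAs took 0.212% and 0.210% of reads in spermine 3 h, 0.286% and 0.299% in spermine 0 h, 0.254% and 0.260% in PBS 3 h, and 0.419% and 0.434% in PBS 0 h. The PBS 0 h libraries had the highest read share and the spermine 3 h libraries the lowest, with no overlap among the 4 groups. By share of summed FPKM the order differed, with PBS 3 h highest (0.404% and 0.379%) and spermine 0 h lowest (0.236% and 0.226%). PBS 0 h held 0.315% and 0.318%, and spermine 3 h 0.267% and 0.261%. Long RNAs weigh more in reads, and Neat1 alone had 28080 of the 74367 reads of the set in PBS 0 h replicate 1. In PBS 3 h replicate 1 it had 5439 of 40250. Macrophage markers summed to 11204 to 13807 FPKM in all libraries, while B cell, erythroid and stromal lists stayed under 1 FPKM. The T cell list summed to 2.61 to 4.16 FPKM, nearly all of it Cd4, with Cd3e and Cd3g at 0. The neutrophil list summed to 4.96 to 8.23 FPKM. Of the 3 NK cell markers, which summed to 1.14 and 1.32 FPKM in spermine 3 h, 4.73 and 6.95 FPKM in PBS 3 h and at most 0.102 FPKM at 0 h, Klrk1 carried nearly all and Ncr1 was at 0. Of the 4 dendritic cell markers, Xcr1 averaged 5.97 FPKM in spermine 3 h, 1.08 FPKM in spermine 0 h, 3.66 FPKM in PBS 3 h and 0.103 FPKM in PBS 0 h, while Flt3 and Zbtb46 averaged 0.0172 and 0.0190 FPKM over all libraries. What part such cells have in the results was not tested, and in bulk samples fewer cells of a type and less RNA per cell cannot be told apart.

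Under IFN-β with spermine, 32 of the 104 RNAs rose and 25 fell at an adjusted p under 0.05 (limma, Benjamini-Hochberg), where 19.7% of the 11421 genes tested rose and 22.1% fell. In PBS 34 rose and 31 fell, against 24.6% and 25% of all genes. Risers made up 30.8% of the set with spermine and 32.7% in PBS. Among the 46 RNAs with at least 2 FPKM in every group they made up 8.70% (4 RNAs) and 10.9% (5). Fallers made up 32.6% (15 RNAs) and 39.1% (18) of these 46. That limit leaves out every RNA near 0 in any group, strong risers among them. The shares of the 46 therefore follow in part from the selection and are not weighed against the full set. The median log2 change of the 104 was -0.02 with spermine and -0.07 in PBS, and that of all genes -0.01 and -0.02. Rescaling each library to TPM lowered the median of all genes by 0.33 with spermine and 0.46 in PBS. The counts became 28 up and 38 down with spermine and 30 up and 48 down in PBS. The balance of up and down therefore depends on the scaling. No share of all genes was taken after this rescaling, so these counts have no background beside them. These responses share no library, and 28 RNAs (26.9%) rose in both, 18 (17.3%) fell in both, and 28 (26.9%) passed in neither, against 16.2%, 15.3% and 40.7% of all genes tested. Log2 changes are differences of log2(FPKM + 1) and understate the change of weakly expressed RNAs.

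AW112010 is a long RNA of activated immune cells from which, in mouse macrophages, a protein was found to be translated at a non-canonical start. It stood at 50.5 and 52.5 FPKM in spermine 3 h, 2.59 and 2.50 FPKM in spermine 0 h, 316 and 266 FPKM in PBS 3 h, and 1.64 and 1.80 FPKM in PBS 0 h. The groups do not overlap, and the PBS 3 h libraries stand far above all others. The ratio of means, 3 h over 0 h, was 20.3 with spermine and 169 in PBS. AW112010 rose by 3.89 ± 0.09 (log2, standard error) with spermine (adjusted p = 1.94e-07) and by 6.74 ± 0.09 in PBS (adjusted p = 2.78e-08), and the change with spermine at 3 h was -2.47 ± 0.09 (adjusted p = 8.59e-06). None of the 50-base words of its transcripts occurs in another gene of the annotation.

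4930430E12Rik, at 4:6352105-6357530, lies 8120 bp from Sdcbp, which encodes the scaffold protein syntenin. It held 159 and 168 FPKM in spermine 3 h, 19.2 and 14.9 FPKM in spermine 0 h, 145 and 110 FPKM in PBS 3 h, and 13.2 and 10.6 FPKM in PBS 0 h. All 3 h libraries exceed all 0 h libraries, and both spermine 3 h libraries lie somewhat above both PBS 3 h libraries. It rose by 3.20 ± 0.17 with spermine and 3.31 ± 0.17 in PBS (adjusted p = 1.29e-05 and 6.73e-06), and the difference of the responses was -0.11 ± 0.24 (adjusted p = 0.796). Sdcbp rose by 0.90 with spermine and by 1.09 in PBS.

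**Figure D1:**
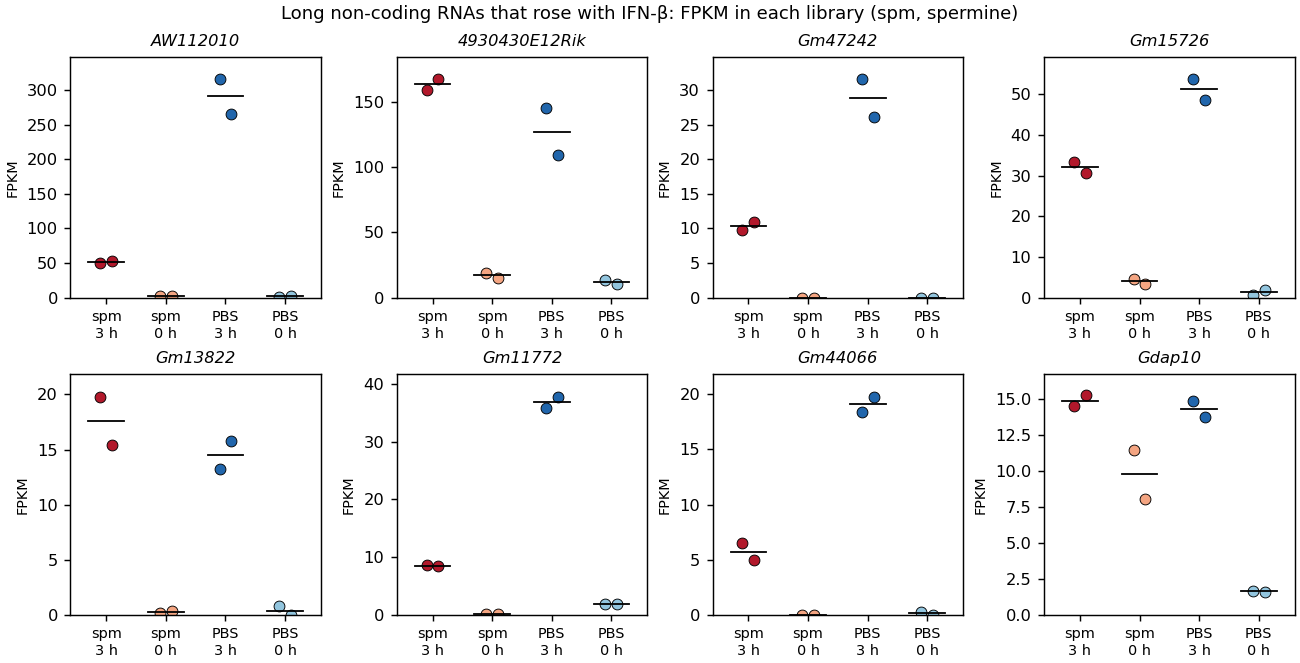
FPKM (vertical axis, linear from 0) of 8 long non-coding RNAs in each library, with the groups along the horizontal axis in the order spermine (spm) 3 h, spermine 0 h, PBS 3 h and PBS 0 h. Points are libraries and bars are means of 2. AW112010, Gm47242, Gm11772 and Gm44066 are highest in PBS 3 h, 4930430E12Rik and Gm13822 reach like levels in both 3 h groups, and Gdap10 is raised in every group but PBS 0 h.

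Several risers were at or near 0 without IFN-β. Gm47242 stood at 9.77 and 10.9 FPKM in spermine 3 h and 31.5 and 26.1 FPKM in PBS 3 h, and had no read in any 0 h library. Against a floor of 3 reads per library it was at least 28.4-fold higher at 3 h with spermine and at least 97.7-fold higher in PBS. Gm44066 was at 6.47 and 4.94 FPKM in spermine 3 h, 0 in both spermine 0 h libraries, 18.4 and 19.8 FPKM in PBS 3 h, and 0.252 and 0 FPKM in PBS 0 h, which makes it at least 17.1-fold higher at 3 h with spermine. It rose by 4.16 ± 0.15 in PBS (adjusted p = 1.02e-06). Gm9869, which lies opposite Uaca, was at 5.77 and 8.03 FPKM in spermine 3 h, 0.178 and 0.0809 FPKM in spermine 0 h, 11.9 and 14 FPKM in PBS 3 h, and 0 in PBS 0 h, at least 63.0-fold higher at 3 h in PBS. In all 3 RNAs every 3 h library is above every 0 h library, and both PBS 3 h libraries are above both spermine 3 h libraries.

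Gm13822 is read from the strand opposite Oasl1, an interferon-induced relative of the oligoadenylate synthetases, with starts 37 bp apart and 11.0% of its exon bases inside coding exons. It was at 19.8 and 15.4 FPKM in spermine 3 h, 0.175 and 0.318 FPKM in spermine 0 h, 13.3 and 15.7 FPKM in PBS 3 h, and 0.757 and 0 FPKM in PBS 0 h. The 3 h groups overlap each other and lie far above the 0 h groups. It rose by 3.89 ± 0.26 with spermine and by 3.54 ± 0.26 in PBS (adjusted p = 3.87e-05 in each), while Oasl1 rose by 7.52 and 7.18. Gm11772, opposite Bahcc1, was at 8.59 and 8.37 FPKM in spermine 3 h, 0.113 and 0.103 FPKM in spermine 0 h, 35.8 and 37.8 FPKM in PBS 3 h, and 1.81 and 1.87 FPKM in PBS 0 h. Its levels were lower with spermine at both times, and it rose by 3.10 ± 0.07 with spermine and 3.74 ± 0.07 in PBS (adjusted p = 1.6e-07 and 5.75e-08). A530040E14Rik, at 15.1 and 16.4 FPKM in spermine 3 h, 1.33 and 1.40 FPKM in spermine 0 h, 26.6 in each PBS 3 h library, and 1.95 and 1.75 FPKM in PBS 0 h, rose by 2.83 ± 0.08 with spermine and 3.28 ± 0.08 in PBS. Of its 50-base words 36.5% also occur in other genes, so the table may split or share its reads with those copies.

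Gdap10, Gm15726 and Gm15247, which also rose in both backgrounds, are described with the difference of the responses. The remaining RNAs that rose in both had log2 changes between 0.50 (A230028O05Rik) and 2.43 (Gm16094) with spermine, and between 0.79 (Gm13091) and 3.58 (Gm16094) in PBS.

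RNAs that fell were led by F630028O10Rik, the host of Mir223, at X:96239926-96243636. It was at 3.84 and 4.52 FPKM in spermine 3 h, 17.8 and 16.5 FPKM in spermine 0 h, 2.89 and 2.31 FPKM in PBS 3 h, and 19.3 and 16.4 FPKM in PBS 0 h. Both 3 h groups lie far below both 0 h groups, and the 0 h groups overlap. It fell by 1.81 on the log2 scale with spermine (SE 0.12, adjusted p = 3.94e-05) and by 2.39 in PBS (SE 0.12, adjusted p = 5.99e-06), and the difference of the responses, 0.57 ± 0.17, did not pass (adjusted p = 0.0739). Its 3 h level was higher with spermine by 0.53 ± 0.12 (adjusted p = 0.0137), which no longer passed when spermine 3 h replicate 2 (0.43) or PBS 3 h replicate 2 (0.41) was left out.

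Dubr, a lincRNA described in mouse muscle cells, fell with IFN-β and was raised by spermine. It was at 7.34 and 7.31 FPKM in spermine 3 h, 26.1 and 21.3 FPKM in spermine 0 h, 3.94 and 3.85 FPKM in PBS 3 h, and 10.9 and 9.46 FPKM in PBS 0 h. None of the 4 groups overlaps another. It fell by 1.56 with spermine and 1.19 in PBS (SE 0.11 each, adjusted p = 4.78e-05 and 0.000117), and spermine raised it by 0.77 at 3 h and 1.14 at 0 h (SE 0.11 each, adjusted p = 0.00186 and 0.00034). Gm45606 fell by 1.18 with spermine and 1.69 in PBS, and 1700020I14Rik by 0.98 and 1.10. Gm47950 fell by 1.04 and 1.01 in the same order. Gm45820, with 0.789 and 1.12 FPKM in spermine 3 h and 6.50 and 1.82 FPKM in spermine 0 h, passed with a change of -1.24 ± 0.41 (adjusted p = 0.0469). That call was lost without any 1 of 7 libraries (-1.36 to -0.54), with the lowest size without spermine 0 h replicate 1.

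The response to IFN-β differed between spermine and PBS for 21 of the 104 RNAs. The difference, spermine minus PBS, was above 0 in 8 and below 0 in 13, where 5.82% and 7.75% of all genes passed in these directions. A value above 0 can be a larger rise or a smaller fall with spermine. A value below 0 can be a smaller rise or a larger fall. The 13 include Gm11772, whose sign depends on the scale, as described below. They also include A530040E14Rik, whose call was lost without any 1 of the 8 libraries (-0.50 to -0.39). The split was 10 above 0 and 9 below with TPM rescaling, which moved the median of all genes by 0.14. It was 7 and 6 with limma voom on rebuilt reads, and 3 and 9 with no filter on low values. Shares of all genes were not taken under these alternatives. Without spermine 3 h replicate 1 or 2 the 21 became 12 and 10, and without PBS 0 h replicate 1 or 2 they became 13 and 11. The PBS 3 h and 0 h libraries enter both this difference and the response in PBS, so their values are given side by side and not counted against each other.

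**Figure D2:**
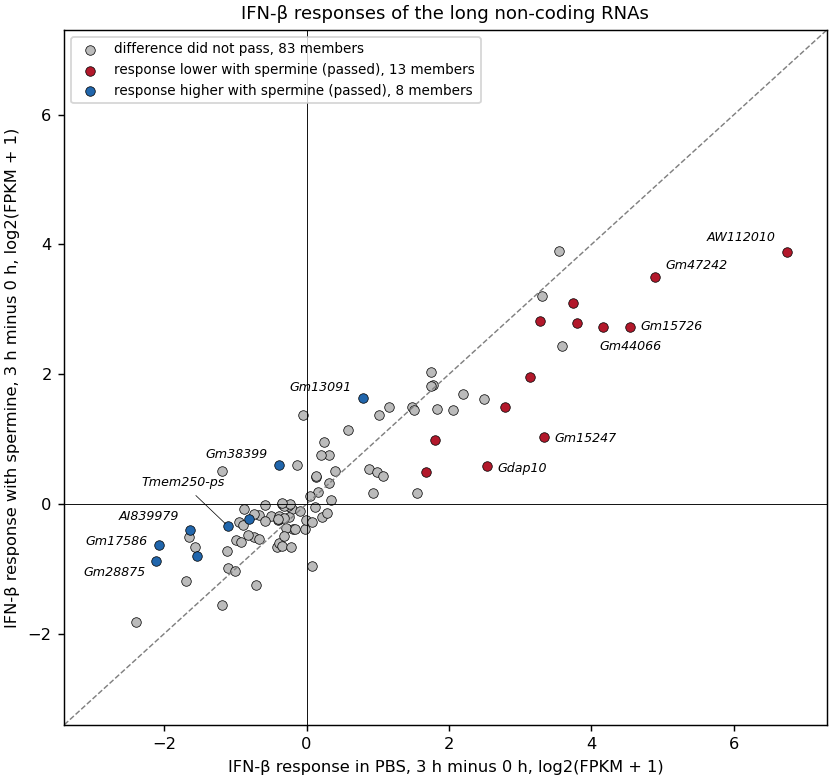
Response to IFN-β with spermine (vertical axis) against that in PBS (horizontal axis), each 3 h minus 0 h in log2(FPKM + 1), for the 104 long non-coding RNAs. The dashed line marks equal responses. Red points (13) had a difference, spermine minus PBS, below 0 and blue points (8) above 0, at an adjusted p under 0.05. Grey points (83) did not pass. A blue point can be a smaller fall with spermine as well as a larger rise. The red points include Gm11772, whose sign depends on the scale. AW112010 lies farthest below the line, at 3.89 with spermine and 6.74 in PBS.

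AW112010 had the largest difference, -2.85 ± 0.13 (adjusted p = 0.00122), and kept it on the same side of the threshold under every alternative run. Gdap10 is read from the same strand as Nampt, which encodes the enzyme that makes nicotinamide mononucleotide, overlapping that gene but none of its exons. It was at 14.5 and 15.3 FPKM in spermine 3 h, 11.4 and 8.08 FPKM in spermine 0 h, 14.9 and 13.7 FPKM in PBS 3 h, and 1.67 and 1.62 FPKM in PBS 0 h. PBS 0 h stands apart from the other 3 groups. Its response was 0.58 ± 0.14 with spermine (adjusted p = 0.016) and 2.53 ± 0.14 in PBS (adjusted p = 9.62e-06), a difference of -1.95 ± 0.20 (adjusted p = 0.00295). The call with spermine was lost without either spermine 3 h library (0.61 and 0.55), with TPM rescaling (0.29) and with only the spermine groups in the fit. Nampt moved alike, by 1.61 with spermine and 3.30 in PBS with a difference of -1.69 (adjusted p = 0.00245), and reads of its unspliced RNA and of Gdap10 cannot be told apart.

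Gm15726 and Gm15247 both lie opposite the ubiquitin ligase gene Mid1, with 28.3% and 27.3% of their exon bases inside coding exons. Gm15726 was at 33.2 and 30.7 FPKM in spermine 3 h, 4.51 and 3.46 FPKM in spermine 0 h, 53.6 and 48.6 FPKM in PBS 3 h, and 0.772 and 1.85 FPKM in PBS 0 h. The 4 groups do not overlap, with spermine libraries above PBS libraries at 0 h and below them at 3 h. Its response was 2.73 ± 0.22 with spermine and 4.53 ± 0.22 in PBS, a difference of -1.80 ± 0.31 (adjusted p = 0.0138), lost without spermine 3 h replicate 1 (-1.85) or 2 (-1.74). Gm15247 was at 10.6 and 10.5 FPKM in spermine 3 h, 5.99 and 3.55 FPKM in spermine 0 h, 14.2 and 16.3 FPKM in PBS 3 h, and 1.08 and 0.246 FPKM in PBS 0 h, in the same order of groups. Its responses were 1.04 with spermine, a call lost without spermine 0 h replicate 2 (0.73) or either spermine 3 h library (1.03 and 1.04), and 3.33 in PBS. The difference was -2.29 ± 0.39 (adjusted p = 0.0135) and was likewise lost without spermine 3 h replicate 1 (-2.30) or 2 (-2.29). Mid1 itself had responses of 2.38 with spermine and 3.59 in PBS, a difference of -1.22 (adjusted p = 0.00197).

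Gm47242 had a difference of -1.39 ± 0.15 (adjusted p = 0.00354) and Gm44066 one of -1.43 ± 0.21 (adjusted p = 0.00829). Both calls were lost with limma voom on the rebuilt reads (-1.76 and -0.61), and that of Gm44066 also with TPM rescaling (-1.38) and a pseudocount of 0.1 (-0.83). For Gm11772 the sign itself depends on the scale: the difference was -0.64 ± 0.10 (adjusted p = 0.00967) on log2(FPKM + 1), but 0.36 after TPM rescaling, 1.11 with a pseudocount of 0.1 and 1.42 with voom, since spermine 0 h held 1 read in each library. No direction is given for it.

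Gm17586 had the largest difference in the other direction among the RNAs that passed (Gm38079, at 1.69 ± 0.63, did not, adjusted p = 0.128). It starts 168 bp from Mafg, on the opposite strand, and Mafg encodes a small Maf protein that pairs with NRF2 at antioxidant response elements. Gm17586 was at 9.12 and 8.91 FPKM in spermine 3 h, 13.9 and 15.1 FPKM in spermine 0 h, 3.63 and 2.45 FPKM in PBS 3 h, and 16.4 and 15.2 FPKM in PBS 0 h. The 3 h groups are separate and the 0 h groups are close. It fell by 0.63 (SE 0.14) with spermine and by 2.07 (SE 0.14) in PBS (adjusted p = 0.00978 and 2.18e-05), a difference of 1.44 ± 0.19 (adjusted p = 0.00624), and the fall with spermine was lost without spermine 3 h replicate 2 (-0.62). Mafg fell by 0.76 and 2.02, with a difference of 1.25 (adjusted p = 0.00186). At 3 h spermine raised Gm17586 by 1.32 ± 0.14 and Mafg by 2.25, while at 0 h the change of Gm17586 was -0.12 (adjusted p = 0.525) and Mafg rose by 1.00.

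AI839979 was at 2.32 and 2.50 FPKM in spermine 3 h, 3.53 and 3.50 FPKM in spermine 0 h, 1.72 and 1.53 FPKM in PBS 3 h, and 6.89 and 7.38 FPKM in PBS 0 h. The drop at 3 h is visible in both backgrounds and deeper in PBS, where the 0 h level is higher. The difference of its responses was 1.23 ± 0.12 (adjusted p = 0.00245). Gm28875 (1.23 ± 0.26), Gm38399 (1.00 ± 0.23), Gm13091 (0.84 ± 0.18) and Tmem250-ps (0.76 ± 0.14) also passed, but leaving out a library ended each of these calls in at least 4 of 8 cases, with values of 0.98 to 1.37 for Gm28875, 0.90 to 1.09 for Gm38399, 0.70 to 0.89 for Gm13091 and 0.74 to 0.79 for Tmem250-ps.

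At 3 h of IFN-β, spermine raised 19 and lowered 26 of the 104 RNAs, against 19.9% and 20.6% of all genes. Without IFN-β it raised 17 and lowered 24, against 22% and 19.2%. The comparisons share no library, and 9 RNAs (8.65%) were raised at both times and 13 (12.5%) lowered at both, against 13.3% and 9.8% of all genes tested. The median log2 change was -0.02 at 3 h and -0.08 at 0 h, against -0.00 and 0.01 over all genes. TPM rescaling lowered the median of all genes by 0.20 at 3 h and 0.34 at 0 h. After it 16 RNAs rose and 33 fell at 3 h, and 13 rose and 40 fell at 0 h. Here too no share of all genes was taken after rescaling.

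AU020206, a lincRNA at 7:75769038-75782099 and 14429 bp from Akap13, was lowered by spermine at both times. It was at 13.7 and 16.8 FPKM in spermine 3 h, 17.6 and 14.7 FPKM in spermine 0 h, 61.9 and 53.9 FPKM in PBS 3 h, and 68.7 and 64.3 FPKM in PBS 0 h. Every spermine library is below every PBS library, and within a treatment the times are close. It fell by 1.86 at 3 h and 1.98 at 0 h (SE 0.13 each, adjusted p = 9.65e-05 and 6.72e-05), under every alternative run. Gm28913, opposite Ikbke, a kinase gene of the interferon pathway, was at 0.981 and 0.556 FPKM in spermine 3 h, 0.332 and 0.302 FPKM in spermine 0 h, 5.51 and 5.27 FPKM in PBS 3 h, and 5.28 and 4.36 FPKM in PBS 0 h. It fell by 1.86 at 3 h and by 2.14 at 0 h (SE 0.14 each), with 2 reads in its lowest library, while Ikbke fell by 0.60 and 1.26.

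Gm11772 fell by 2.00 at 3 h and 1.36 at 0 h with spermine, and Gm42047, 64.8% of whose 50-base words occur in other genes, by 1.60 and 0.79. At 0 h BC051226 fell by 1.24 (SE 0.33, adjusted p = 0.0221), which no longer passed when spermine 0 h replicate 1 (-0.83) or either PBS 0 h library (-1.07 and -1.40) was left out. Gm38079, a gene of 154 bases with 1 read in its lowest library, fell by 1.62 at 0 h (adjusted p = 0.0253), a call lost without any 1 of the 4 libraries at 0 h (-1.82 to -1.42). Tmem250-ps fell by 1.14 at 0 h (adjusted p = 0.000201).

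Gm12867 lies opposite Slc2a1, which encodes the glucose transporter GLUT1, with no exon overlap. It was at 4.22 and 2.66 FPKM in spermine 3 h, 8.72 and 6.38 FPKM in spermine 0 h, 0.314 and 0.948 FPKM in PBS 3 h, and 0.478 and 0.543 FPKM in PBS 0 h. All spermine libraries are above all PBS libraries. Spermine raised it by 1.45 ± 0.25 at 3 h and 2.49 ± 0.25 at 0 h (adjusted p = 0.00394 and 0.000407), and Slc2a1 by 2.06 and 2.15. Gm12279, which starts 130 bp from the polyubiquitin gene Ubb, rose by 1.87 ± 0.27 at 3 h and 1.33 ± 0.27 at 0 h, the 0 h call being lost without PBS 0 h replicate 1 (1.22), and Ubb by 1.85 and 1.42. Gm46210, which starts 234 bp from the syntaxin-binding gene Stxbp5, rose by 1.78 ± 0.31 at 3 h and 1.34 ± 0.31 at 0 h, and Stxbp5 by 1.15 and 0.99. The 0 h change of Gm46210 no longer passed when spermine 0 h replicate 2 (0.98) or either PBS 0 h library (1.36 and 1.33) was left out.

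**Figure D3:**
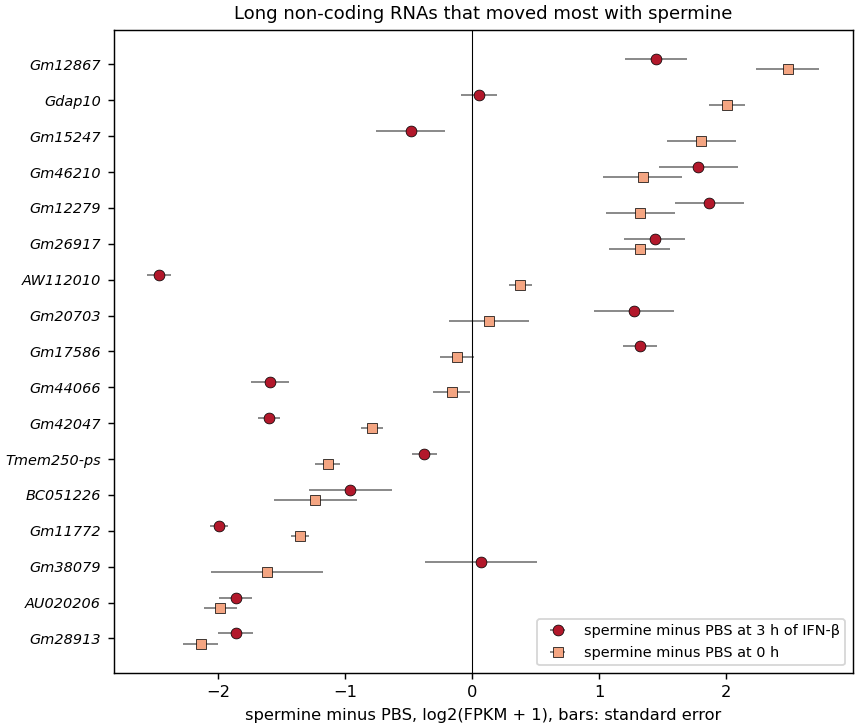
Spermine minus PBS in log2(FPKM + 1) (horizontal axis) for the long non-coding RNAs that moved most at 3 h of IFN-β (circles) or at 0 h (squares), with bars of 1 standard error. AU020206 and Gm28913 lie near -2 at both times, Gm12279 and Gm46210 above 1 at both, AW112010 is at -2.47 at 3 h and 0.38 at 0 h, and Gdap10 is at 0.06 at 3 h and 2.01 at 0 h.

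Gm26917 had 118 and 107 FPKM in spermine 3 h, 64.6 and 95.2 FPKM in spermine 0 h, 34.5 and 48.5 FPKM in PBS 3 h, and 26.2 and 36.1 FPKM in PBS 0 h. Spermine libraries are above PBS libraries at both times, by 1.44 ± 0.24 at 3 h and 1.32 ± 0.24 at 0 h (adjusted p = 0.00369 and 0.00506). It lies 12 bp from a ribosomal RNA gene, CT010467.1, on the opposite strand of chromosome 17, and ribosomal RNA carries no poly(A) tail. That gene had 98.5 and 73.4 FPKM in spermine 3 h, 47.7 and 78.9 FPKM in spermine 0 h, 43.8 and 78.4 FPKM in PBS 3 h, and 37.4 and 65.8 FPKM in PBS 0 h, and its spermine changes of 0.53 at 3 h and 0.30 at 0 h did not pass. Replicate 2 exceeds replicate 1 for both genes in every group but spermine 3 h, where replicate 1 is higher for both. What part ribosomal RNA has in the Gm26917 change was not tested.

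Malat1, a nuclear RNA of speckles whose mature end has no poly(A) tail, was at 68.6 and 72.9 FPKM in spermine 3 h, 93.9 and 91.3 FPKM in spermine 0 h, 84.8 and 85.5 FPKM in PBS 3 h, and 82.6 and 90.9 FPKM in PBS 0 h. Spermine 3 h lies below all other libraries and spermine 0 h above them, while the PBS groups overlap. Malat1 fell by 0.39 (SE 0.07) with IFN-β in spermine (adjusted p = 0.00466), and its change in PBS was -0.02 (adjusted p = 0.797), but the difference of the responses did not pass (-0.36, adjusted p = 0.0566). Its fall of 0.26 with spermine at 3 h was lost without any 1 of the 4 libraries at 3 h (-0.31 to -0.22).

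Neat1, the RNA around which paraspeckles form, was at 18.8 and 17.7 FPKM in spermine 3 h, 29.3 and 35.7 FPKM in spermine 0 h, 18.8 and 22.3 FPKM in PBS 3 h, and 59.0 and 64.2 FPKM in PBS 0 h. PBS 0 h is highest, spermine 0 h lies between, and the 3 h groups touch. Levels are per gene, so different transcripts of Neat1 are not told apart, and paraspeckles were not measured. Neat1 fell by 0.79 with spermine and 1.54 in PBS under IFN-β (SE 0.12 each, adjusted p = 0.00208 and 5.25e-05), and spermine lowered it by 0.91 at 0 h (adjusted p = 0.00132), all under every alternative run. The difference of the responses, 0.75 ± 0.17 (adjusted p = 0.0328), was lost without any 1 of 6 libraries (0.61 to 0.81). Of 12 paraspeckle protein genes tested, 1 rose and 6 fell with IFN-β in spermine and likewise in PBS, while spermine raised 5 and lowered 2 at 3 h and raised 5 at 0 h. Of all genes, 19.7% rose and 22.1% fell with IFN-β in spermine, 24.6% and 25% in PBS, 19.9% and 20.6% with spermine at 3 h, and 22% and 19.2% at 0 h. Nono, the riser, rose with IFN-β by 0.92 with spermine and 1.47 in PBS, and its change with spermine at 3 h was -0.45. Tardbp fell most with IFN-β, with a change of -0.98 in each background. Sfpq rose with spermine by 0.70 at 3 h and 0.68 at 0 h. Its changes with IFN-β were -0.42 with spermine and -0.44 in PBS.

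**Figure D4:**
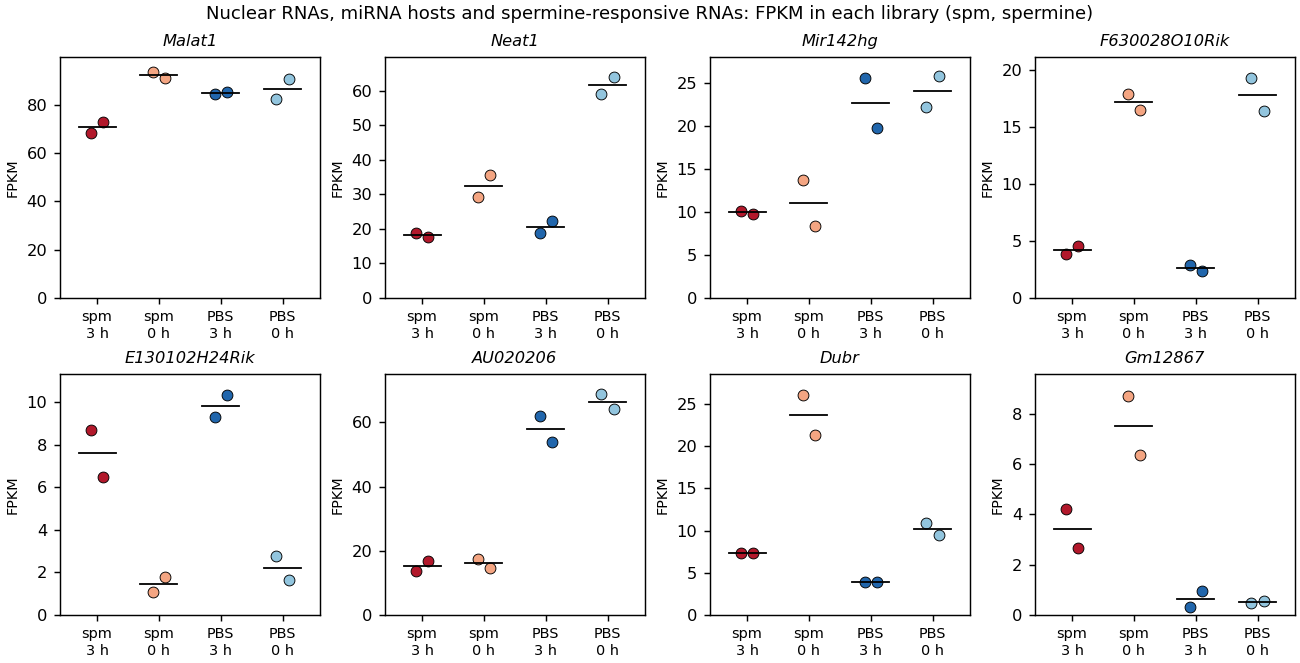
FPKM (vertical axis, linear from 0) of 8 long non-coding RNAs in each library, groups in the order spermine (spm) 3 h, spermine 0 h, PBS 3 h and PBS 0 h, points for libraries and bars for means of 2. Neat1 is highest in PBS 0 h, Mir142hg and AU020206 are lower in both spermine groups, F630028O10Rik is low in both 3 h groups, and Dubr and Gm12867 are highest in spermine 0 h.

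Mir142hg, the Mir142 host, was at 10.1 and 9.78 FPKM in spermine 3 h, 13.7 and 8.38 FPKM in spermine 0 h, 25.6 and 19.8 FPKM in PBS 3 h, and 22.2 and 25.8 FPKM in PBS 0 h. All spermine libraries are below all PBS libraries. It fell by 1.10 at 3 h and 1.09 at 0 h (SE 0.22 each, adjusted p = 0.00691 and 0.00711). E130102H24Rik, the Mir101a host, was at 8.71 and 6.46 FPKM in spermine 3 h, 1.05 and 1.80 FPKM in spermine 0 h, 9.29 and 10.3 FPKM in PBS 3 h, and 2.76 and 1.62 FPKM in PBS 0 h. It rose with IFN-β by 1.83 with spermine and 1.78 in PBS (SE 0.23 each, adjusted p = 0.000779 and 0.000582). The Mir142hg changes with IFN-β were -0.10 with spermine and -0.09 in PBS and did not pass (adjusted p = 0.73 and 0.767).

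Among other RNAs with a described role, 2900097C17Rik (Norad), a cytoplasmic RNA that binds Pumilio proteins, was at 24.5 and 23.5 FPKM in spermine 3 h, 39.4 and 37.7 FPKM in spermine 0 h, 26.4 in each PBS 3 h library, and 34.2 and 37.1 FPKM in PBS 0 h. It fell with IFN-β by 0.66 with spermine and 0.42 in PBS (SE 0.07 each), and 39.5% of its 50-base words occur in other genes. Tug1 fell by 0.60 with spermine (adjusted p = 0.00955), a call lost without spermine 0 h replicate 1 (-0.48) or spermine 3 h replicate 1 (-0.53), and by 0.38 in PBS (adjusted p = 0.0443), a call lost without any 1 of 5 libraries (-0.49 to -0.26). The snoRNA hosts Snhg6, which holds Snord87, and Epb41l4aos passed in none of the comparisons. Snhg6 had 5.48 and 3.88 FPKM in spermine 3 h, 4.11 and 5.61 FPKM in spermine 0 h, 3.31 and 4.54 FPKM in PBS 3 h, and 3.35 and 3.68 FPKM in PBS 0 h, where PBS 0 h lies below both spermine groups and inside the range of PBS 3 h.

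The lists around these RNAs also hold genes of other biotypes or lower level, and their counts stand beside 19.7% rising and 22.1% falling of all genes with IFN-β in spermine, 24.6% and 25% in PBS, 19.9% and 20.6% with spermine at 3 h, and 22% and 19.2% at 0 h. With 6 to 17 genes a list, several counts lie near these shares. Of 8 RNAs tested from a list of nuclear and chromatin long non-coding RNAs, 5 fell with IFN-β in spermine and 4 in PBS. Their medians were -0.42 and -0.40. That list also holds the cytoplasmic 2900097C17Rik, which is among those that fell in both, so it is not purely nuclear. At 3 h spermine raised 1 and lowered 2 of these 8, and at 0 h it raised 1 and lowered 3. Of 11 snoRNA hosts, 1 rose and 3 fell with spermine and 1 rose and 4 fell in PBS, and spermine raised 2 at 3 h and raised 2 and lowered 1 at 0 h. Of 6 miRNA hosts, 1 rose and 4 fell with spermine and 1 rose and 3 fell in PBS, and spermine raised 3 and lowered 3 at 3 h and raised 2 and lowered 1 at 0 h. Of 6 long non-coding RNAs described in immune cells, 2 rose and 3 fell with spermine and 2 rose and 2 fell in PBS, and spermine raised 1 and lowered 4 at 3 h and raised 1 and lowered 2 at 0 h. Of 17 genes of the nuclear RNA exosome and its adaptors, which degrade many such RNAs, 3 fell with spermine and 2 rose and 3 fell in PBS, and spermine raised 1 and lowered 3 at 3 h and raised 2 and lowered 4 at 0 h. Outside the set by its level, Mir155hg rose with IFN-β by 0.46 with spermine and 2.21 in PBS. Outside it by biotype, Mir22hg rose with spermine by 2.61 at 3 h and 2.22 at 0 h.

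A coding gene lay within 50 kb of 94 of the 104 RNAs, and 80 of these neighbours were tested. In 49 the gene bodies overlapped on opposite strands, and in 12 they diverged from starts within 2 kb. In 37 RNAs exon bases overlapped those of a coding gene, by at least 50% in Gm17201, Gm29585 and Gm37787, and in 67 they did not. No source used here states the strand setting, so reads of overlapping exons cannot be told apart.

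Of 43 RNAs that changed with IFN-β in spermine and had a tested neighbour, the neighbour changed the same way in 29, the other way in 1 and did not pass in 13. In PBS, where 24.6% and 25% of all genes rose and fell, these counts were 35, 4 and 11 of 50, and among pairs with no exon overlap 21, 2 and 5 of 28. For spermine against PBS they were 19, 3 and 10 of 32 at 3 h, and 24, 2 and 6 of 32 at 0 h. Among pairs with no exon overlap they were 16, 1 and 6 of 23 with IFN-β in spermine. In such pairs spermine against PBS gave 12, 2 and 4 of 18 at 3 h and 15, 2 and 3 of 20 at 0 h. Of all genes, 19.7% rose and 22.1% fell with IFN-β in spermine. For spermine against PBS the shares were 19.9% and 20.6% at 3 h and 22% and 19.2% at 0 h. The log2 changes of an RNA and its neighbour had a Pearson correlation of 0.78 across the 80 pairs with IFN-β in PBS, and 0.74 across the 45 without exon overlap, as a description, since both genes of a pair come from the same libraries. All 5 divergent RNAs that changed with IFN-β in spermine moved with their neighbour, as did all 6 in PBS, and so did all 6 that changed with spermine at 3 h and all 5 at 0 h.

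**Figure D5:**
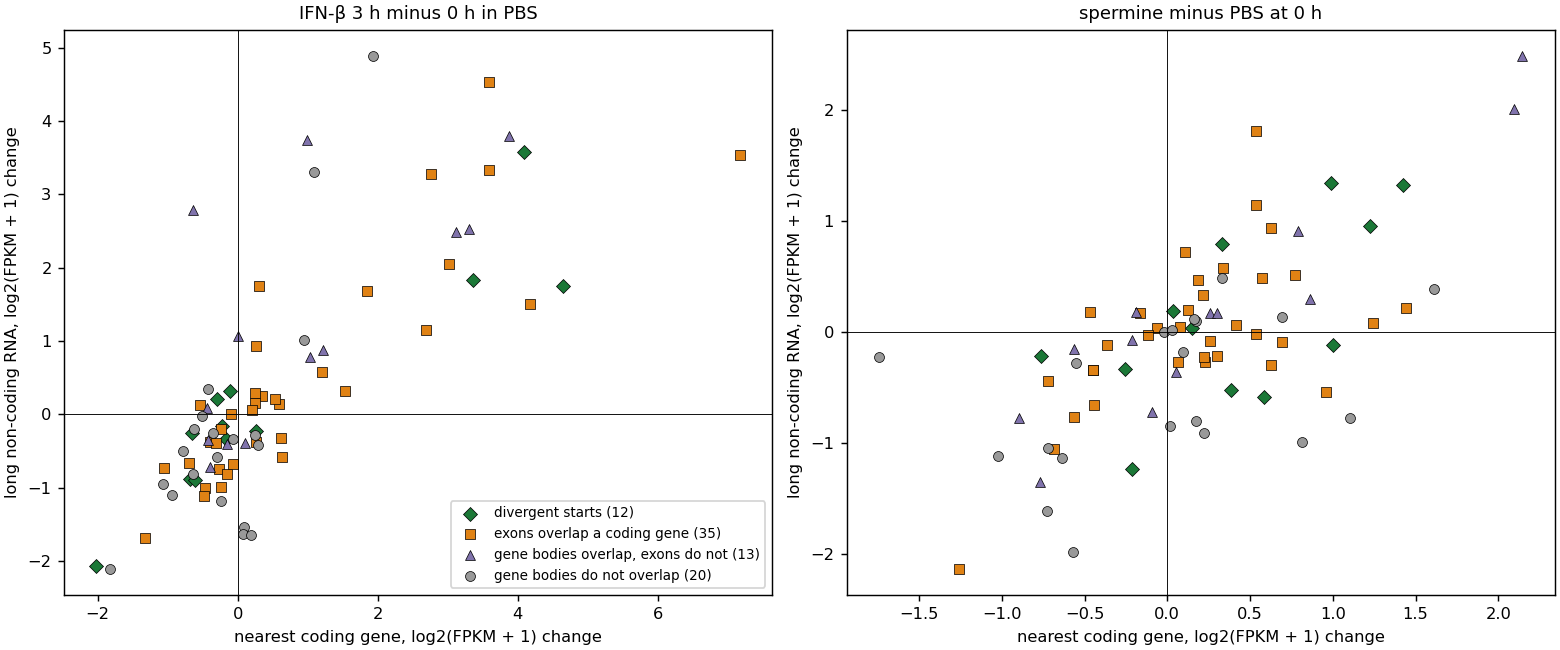
Log2(FPKM + 1) change of each long non-coding RNA (vertical axis) against that of its nearest coding gene (horizontal axis) for 80 pairs, with IFN-β in PBS, 3 h minus 0 h (left), and for spermine minus PBS at 0 h (right). Marks give the arrangement of the pair, with 12 divergent pairs and 35 with overlapping exons. Among RNAs that changed, the neighbour changed the same way in 35 of 50 on the left and 24 of 32 on the right. 4930512H18Rik stands in the upper left on the left panel, at 2.79 beside -0.64 for Palld.

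BC051226 starts 97 bp from Daxx, which encodes a histone chaperone, on the opposite strand and without exon overlap. It was at 6.13 and 7.44 FPKM in spermine 3 h, 0.432 and 1.52 FPKM in spermine 0 h, 10.6 and 18.6 FPKM in PBS 3 h, and 4.01 and 2.99 FPKM in PBS 0 h. The 3 h libraries are above the 0 h libraries in each treatment. It rose by 2.03 ± 0.33 with spermine and 1.75 ± 0.33 in PBS (adjusted p = 0.00277 and 0.00378), beside 4.93 and 4.65 for Daxx. Further pairs, chosen after their values were seen, were Gm7160 with Zcchc2 (RNA 1.46 with spermine and 1.83 in PBS, neighbour 2.75 and 3.36), Gm26637 with Eif2ak2, the gene of the antiviral kinase PKR (1.45 and 1.51, neighbour 3.93 and 4.17), Gm15133 with Trim12a (1.63 and 2.49, neighbour 2.69 and 3.11), and Gm16094 with Sp110 (2.43 and 3.58, neighbour 3.20 and 4.09). In these pairs the coding gene changed more than the RNA on the log2(FPKM + 1) scale, which shrinks the change of the less abundant gene.

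4930512H18Rik, also chosen after its values were seen, went against its neighbour. It was at 1.73 and 2.05 FPKM in spermine 3 h, 0.0375 and 0 FPKM in spermine 0 h, 7.20 and 5.69 FPKM in PBS 3 h, and 0.0813 and 0.0616 FPKM in PBS 0 h, and rose by 1.50 ± 0.13 with spermine and by 2.79 ± 0.13 in PBS. The cytoskeletal gene Palld, which it overlaps on the opposite strand without shared exon bases, had a change of -0.21 with spermine (adjusted p = 0.206) and fell by 0.64 in PBS (adjusted p = 0.00374). Gm26532 was lowered by spermine, by 0.46 at 3 h and 0.78 at 0 h, where its neighbour Zswim4 was raised by 1.21 and 1.10.

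In the promoter windows of the 49 RNAs that had one, the interferon-stimulated response element was found in 5, or 10.2%, against 3.44% of all 32851 windows. It was in 3 of the 19 that rose with IFN-β in PBS (4930599N23Rik, Gm36161 and Gm46224), 1 of the 13 that fell (F630028O10Rik) and 1 of the 17 that did not pass (Rab10os). Gm46224 was at 8.05 and 7.98 FPKM in spermine 3 h, 2.09 and 1.51 FPKM in spermine 0 h, 17.5 and 15.4 FPKM in PBS 3 h, and 2.81 and 2.80 FPKM in PBS 0 h. The antioxidant response element core was in 8 windows (16.3%, against 12.4% of all), the gamma-activated sequence in 5 (10.2%, against 8.30%) and the AP-1 site in 4 (8.16%, against 7.81%). A match is a run of letters and not a bound site.

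In 80 of the 104 RNAs no 50-base word of the annotated transcripts occurred, on either strand, in a gene elsewhere in the genome. In 6 at least 20% did, and in 4 at least 50%: Gm28901 (84.2%, with Hnrnpf), Gm10076 (69.9%, with Rpl41), Gm36161 (64.9%) and Gm42047. No source used here states how reads that fit several places were counted, so values of these RNAs are uncertain. Gm10076, the fifth by mean, was at 104 and 49.5 FPKM in spermine 3 h, 40.7 and 17.9 FPKM in spermine 0 h, 44.4 and 20.3 FPKM in PBS 3 h, and 22.9 and 42.5 FPKM in PBS 0 h. The 2 libraries of each group lie far apart, spermine 3 h is above the other 3 groups, which overlap, and with a standard error of 0.57 it passed in none of the comparisons. In all, 86 of the 104 RNAs passed in at least 1 of the 5 comparisons (82.7%, against 74.1% of all genes tested) and 18 in none, with means of 2.04 to 42.8 FPKM among these 18.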

How the data were processed

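Poly(A)-selected RNA of 8 libraries was sequenced, 2 in each of 4 groups taken from the labels (spermine or PBS, IFN-β for 3 h or 0 h). The labels name PBS as the vehicle and the series' design text names DMSO, and the extraction protocol speaks of blood while the source is bone marrow-derived macrophages. The deposited table gives FPKM per gene, made by the authors. Per the submitters' processing notes, which give no roles, featureCounts 1.5.0-p3 and HISAT2 2.0.5 were used, with DESeq2 1.20.0, the read tools fastp and CASAVA 1.8, and the builds GRCm38 and mm10. No source used here states the strand setting or the treatment of reads with several matches. Poly(A) selection limits the level read for RNAs without a tail, such as Malat1.

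The members and lists were chosen with earlier results of these data known. Genes with at least 1 FPKM in at least 2 libraries (11421, among them all 104 members) were tested with limma 3.58.1 in R 4.3.3 on log2(FPKM + 1), with 4 group means, empirical Bayes with a trend, two-sided tests and Benjamini-Hochberg adjustment over all genes tested at 0.05. The 5 comparisons were IFN-β 3 h against 0 h with spermine and in PBS, spermine against PBS at either time, and the difference of the responses, spermine minus PBS. Whole reads rebuilt from FPKM and gene length were whole within 0.001 for 100% of values and gave the depth of 15723437 to 17744844 reads per library. Standard errors of members were 0.07 to 0.57, median 0.16, in the 4 comparisons of a pair of groups. On data simulated for IFN-β in PBS over 11421 genes, the test recovered 100% of genes changed by a log2 of -2, 80% at -1, 92% at 1 and 100% at 2, with 13 calls among unchanged genes. The simulation gave all genes the same spread beyond counting noise. It put changes, 50 genes per size, only into genes above a floor of reads in PBS 0 h. It therefore does not show how the test performs for weak or variable members.

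RNAs are named if they were among the 6 risers and 6 fallers of largest change per comparison that passed with no overlap between the groups' libraries (for the difference, that passed), among the 10 highest means, in a list of known long non-coding RNAs, or next to the threshold. Exons and neighbours come from GENCODE M21 (GRCm38), promoters and miRNAs from RefSeq GRCm38.p6. Alternatives were TPM rescaling, quantile normalization, pseudocounts of 0.1 and 0.5, other filters, no trend, voom on rebuilt reads, fits of the compared groups alone, the replicate number as a block, other thresholds for members, and leaving out each library.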

Additional observations from a re-analysis of the deposited data

Results flagged for a closer look

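The responses to IFN-β with spermine and in PBS differed by the test of the difference itself for 12 RNAs, the 6 of largest difference in either direction among those that passed, given as log2 response with spermine minus log2 response in PBS. The differences below 0 were -2.85 for AW112010, -2.29 for Gm15247, -1.95 for Gdap10, -1.80 for Gm15726, -1.43 for Gm44066 and -1.39 for Gm47242. The differences above 0 were 1.44 for Gm17586, 1.23 for Gm28875, 1.23 for AI839979, 1.00 for Gm38399, 0.84 for Gm13091 and 0.76 for Tmem250-ps. Of these, AW112010, Gdap10, Gm17586 and AI839979 passed the test under every alternative run.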

How the results depend on the processing

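Of 130 named changes, 87 kept their direction and their side of the threshold under every alternative run, and 43 did not in at least 1. Over all 2323 alternative values 2117 did so, 203 kept the direction but lost the call, and 3 reversed, all of them the Gm11772 difference, main value -0.64 (0.36 with TPM rescaling, 1.11 with a pseudocount of 0.1 and 1.42 with voom), where 1 read per spermine 0 h library limits the value. Among single libraries, leaving out spermine 3 h replicate 1 (27) or 2 (24) ended the most calls.

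A lower limit of 1 FPKM for members gave 102 changed RNAs with IFN-β in spermine and 124 in PBS. It gave 87 with spermine at 3 h, 72 at 0 h and 34 for the difference. A limit of 5 FPKM gave 30, 33, 22 and 22 for the first 4. The set itself has more RNAs at the lower limit and fewer at the higher. The sizes of the sets at these limits are not given, so these counts do not show whether the share that changed differed. For the difference, 21 RNAs became 13 with voom and 12 with no filter, and the cause was not tested. Leaving out 1 library gave 41 to 57 with IFN-β in spermine, 55 to 66 in PBS, 31 to 49 with spermine at 3 h, 29 to 46 at 0 h and 10 to 22 for the difference. With the replicate number as a block, the counts were 62, 67, 48, 47 and 22 in that order. Deviations of libraries with the same number correlated at 0.23 to 0.37 among PBS 0 h, PBS 3 h and spermine 0 h. Correlations with spermine 3 h were -0.13 to -0.06. The sample titles carry the same 2 replicate names in every group, but the labels do not say what they mark. The main fit therefore had no block, and whether the numbers pair the libraries is not known. With 2 libraries a group and a median of 68.75 reads for a typical member, small changes of weak RNAs may have been missed, which was not tested.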
